A study of Arabidopsis thaliana with 9 samples.

Results

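EXO (AT4G08950, EXORDIUM) and its relatives, the EXORDIUM-like genes, form a small family of Arabidopsis thaliana that encodes secreted proteins of the phosphate-induced type. The family was looked up in an array dataset of root tips by asking which of 8 listed loci have a probe set that the array's annotation maps to them. EXO was the 1 locus with such a probe set, of 13286 loci named in this way on the whole array. The other 7 loci were not analysed here: EXL1 (AT1G35140), EXL2 (AT5G64260), EXL3 (AT5G51550), EXL4 (AT5G09440), EXL5 (AT2G17230), EXL6 (AT3G02970) and EXL7 (AT2G35150). The annotation used here gives no gene for 8730 of 22746 probe sets, and whether any of these belongs to one of the 7 loci, or to a gene called not measured below, was not determined. What follows therefore describes EXO, and says nothing of the rest of its family. Probe sets named EXLA1, EXLA2, EXLA3 and EXLB1 belong to expansin-like genes and are not EXORDIUM-like genes in spite of the similar names. EXO was chosen by its lower values in both ERF115 lines than in wild type, so its 2 differences from wild type are given as a description. Its calls against wild type, where given, describe the same values and are not read as a test. The difference between the 2 lines was not itself part of that choice, although it uses arrays that were.

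EXO was first described as a gene of proliferating cells, and its transcript is known to rise on treatment with brassinosteroids, the steroid hormones that promote cell expansion in plants. Plants that lack EXO are known to grow less, with smaller cells, and to have lower transcript levels of other brassinosteroid-responsive growth genes, among them KCS1, EXPA5, AGP4, WAK1 and DELTA-TIP. Of its relatives, EXL1 is known to be needed for growth when carbon and energy are scarce. ERF115, the gene altered in both lines of the study, encodes a transcription factor of the AP2/ERF family that is known to promote division of the quiescent centre cells of the root, and brassinosteroids are known to raise its transcript level.

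The study profiled root tips of 3 mm from seedlings aged 5 days, with 3 Affymetrix arrays for each of 3 genotypes. The groups were as follows. ERF115OE carries the ERF115 open reading frame under the constitutive p35S promoter in the Col-0 background, erf115ko carries the SALK_021981 insertion in the same background, and Col-0 is wild type. All were grown on MS medium without a specific treatment, and the tips were excised with scalpels. The labels do not say how many independent transgenic lines or cultures stand behind the arrays of a genotype, and p-values therefore measure a spread between arrays that may be technical. Because p35S is active in most tissues, ERF115 is not limited in ERF115OE to the cells that normally express it. The ERF115 transcript was not analysed here, since no probe set was named for it, and neither line could be checked against it. Values are log2 RMA levels, and a difference of 1 is a 2-fold difference. Array medians lay between 5.04 and 5.13, and pairs of arrays of the same genotype correlated at 0.995 to 0.998 across probe sets. The 3 genotypes differ in whole tips, where fewer cells of a type and less RNA per cell cannot be told apart.

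EXO stood at its lowest level in the overexpressor, at an intermediate level in the mutant and at its highest level in wild type. The 3 ERF115OE arrays read 6.36, 6.39 and 6.25. The 3 erf115ko arrays read 7.13, 6.77 and 6.78. The 3 Col-0 arrays read 7.56, 7.63 and 7.67. No array of one genotype overlapped with those of another: the lowest mutant array lay 0.38 above the highest overexpressor array, and the lowest wild-type array lay 0.43 above the highest mutant array. The means were 6.33 ± 0.07 in ERF115OE, 6.89 ± 0.21 in erf115ko and 7.62 ± 0.05 in Col-0 (SD, n = 3 each). Of the variance of EXO over the 9 arrays, 96.1% lay between genotypes. The choice of EXO by its lower values in both lines favours a high share, which is a description only.

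**Figure D1:**
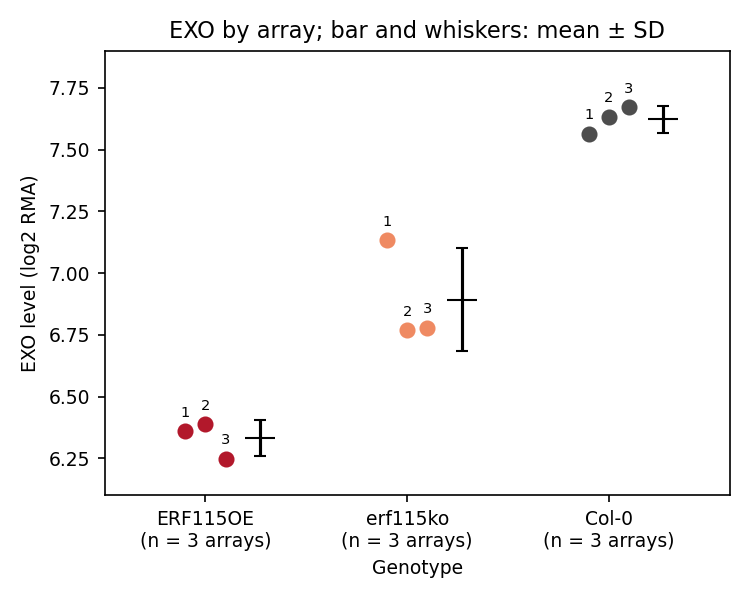
EXO level (log2 RMA, vertical axis) on each array of ERF115OE, erf115ko and Col-0, with the replicate number above each point and the mean ± SD of 3 arrays beside it. The 3 genotypes do not overlap, and replicate 1 of the mutant, at 7.13, lies above the other mutant arrays.

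The mutant arrays spread more than those of the other genotypes. Their SD of 0.21 was larger than that of 93.4% of all probe sets in the mutant, where the median SD was 0.08. In ERF115OE the SD of EXO was larger than that of 34.9% of probe sets, and in Col-0 of 23.9%. Mutant replicate 1 lay apart at 7.13, while replicates 2 and 3 stood at 6.77 and 6.78.

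Against wild type, EXO showed a log2 difference of -1.29 in the overexpressor (SE 0.10, 95% interval -1.51 to -1.07), which is 40.8% of the wild-type level. In the mutant the log2 difference from wild type was -0.73 (SE 0.10, 95% interval -0.95 to -0.51), or 60.3% of the wild-type level. The mutant thus showed 56.5% of the log2 difference seen in the overexpressor. These 2 comparisons share the wild-type arrays. Ordered by the size of the decrease, EXO was at place 8 among 13436 named probe sets in the overexpressor and at place 6 in the mutant. Among all 22746 probe sets it was at places 13 and 11. At an adjusted p under 0.05 over all 22746 probe sets, EXO counted among the 387 lower probe sets of the overexpressor, which are 1.70% of all, and not among the 2 lower ones of the mutant, which are 0.00879%. These places and calls describe the values that chose EXO and are not read as a test. No difference between the 2 lines is read from them. Without mutant replicate 1, EXO's difference in the mutant was -0.85. The overexpressor's split of 854 higher and 387 lower probe sets moved to 753 higher and 576 lower when each array was centred on its median.

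**Figure D2:**
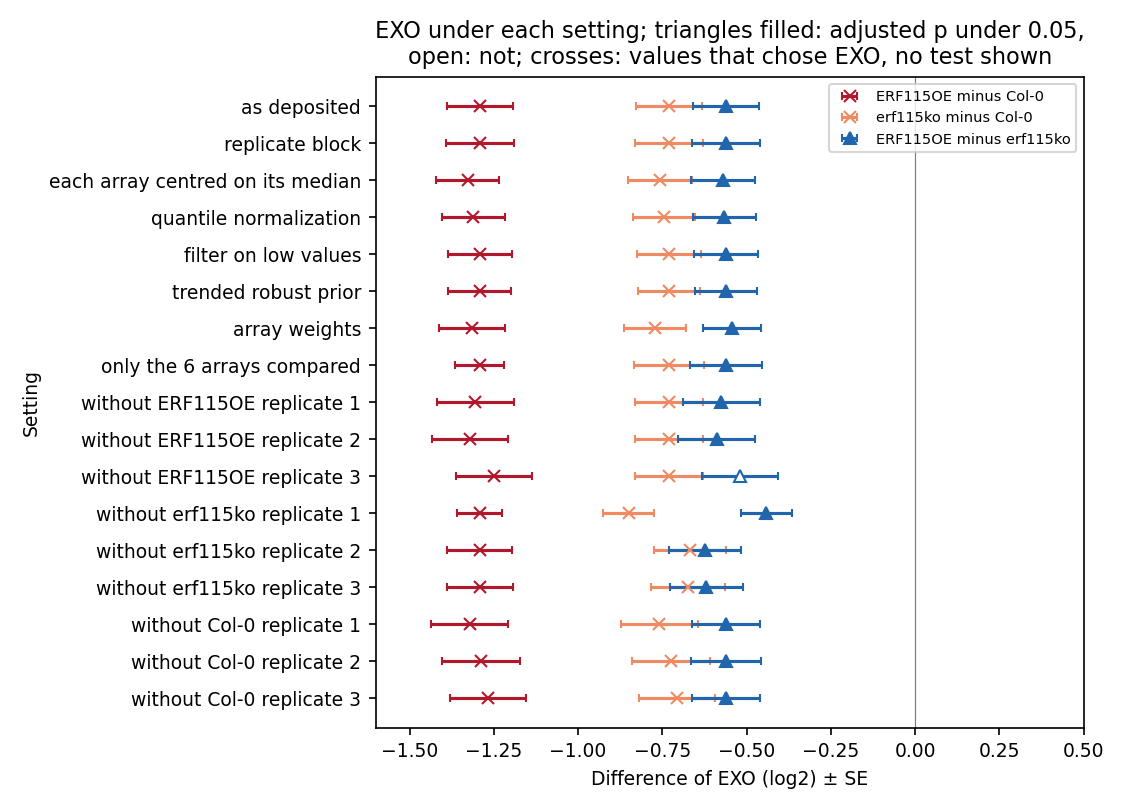
Differences of EXO (log2, horizontal axis, with SE) in the 3 comparisons as deposited and under 16 other settings. Triangles are ERF115OE minus erf115ko, filled where the adjusted p was under 0.05 and open otherwise, and crosses are the comparisons with Col-0 that chose EXO, shown without a test; every difference is below 0, and the triangle is open without overexpressor replicate 3.

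EXO was also lower in the overexpressor than in the mutant, by 0.56 on the log2 scale (difference -0.56, SE 0.10, 95% interval -0.78 to -0.34), so that the overexpressor held 67.8% of the mutant level. This difference passed the threshold in limma with Benjamini-Hochberg adjustment (adjusted p = 0.0114), in a comparison in which 1.03% of all probe sets were called lower. An exact two-sided permutation test gave p = 0.1, the smallest that 3 arrays against 3 allow. In the order of decreases EXO was at place 39 among named probe sets and at place 69 among all. Without overexpressor replicate 3 the adjusted p was 0.0513 and the difference -0.52, and without mutant replicate 1 the difference was -0.44 with an adjusted p of 0.0245. All 3 overexpressor arrays were lower than all 3 mutant arrays.

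The stepwise order of EXO, with all overexpressor arrays below all mutant arrays and these below all wild-type arrays, was found in 119 of 22746 probe sets, or 0.523%. The reverse order was found in 131. All overexpressor arrays were below all wild-type arrays in 10.6% of probe sets, and all mutant arrays below all wild-type arrays in 3.96%. EXO was chosen for lower values in both lines than in wild type, which favours these orders. The shares therefore do not measure how unusual EXO is. Among named probe sets that ranged over at least 1 on the log2 scale across the 9 arrays, 7 shared the stepwise order with EXO: CML23, AT4G27280, AT1G72240, AT4G27652, AT3G19680, AT4G23870 and AT5G26790. AT4G23870 and AT5G26790 were singled out after their values were seen, and the other 5 are also among the genes most like EXO.

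The genes whose pattern was most like that of EXO were sought by Pearson correlation over the 9 arrays, among 380 named probe sets that ranged over at least 1. The correlation is a description, since the 9 arrays fall into 3 genotypes and share their normalization. The 10 most like genes had r between 0.92 and 0.97, while the median over the 380 was -0.70. They included the calmodulin-like genes AT1G76640 (CML39) and CML23, whose family is known for binding calcium, and ORA47, which encodes a transcription factor of the same AP2/ERF family as ERF115. The other 7 have no gene name in the table used here: AT4G27280, AT1G44830, AT1G72240, AT4G27652, AT4G24110, AT4G29780 and AT3G19680.

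AT4G27280 came first, with r = 0.97. Its levels were 7.37, 8.00 and 7.59 in ERF115OE, 8.57, 8.24 and 8.18 in erf115ko and 8.93, 9.12 and 9.40 in Col-0. Like EXO, it fell into 3 separate steps, and among mutant arrays replicate 1 was the highest. AT1G76640 followed with r = 0.96. Its levels were 5.91, 6.54 and 6.01 in ERF115OE, 7.16, 6.42 and 6.66 in erf115ko and 7.43, 7.77 and 7.67 in Col-0. Here the overexpressor and the mutant overlapped, and both lay below wild type on all arrays. AT1G44830 (r = 0.96) stood at 5.30, 5.41 and 5.04 in ERF115OE, at 5.77, 5.34 and 5.58 in erf115ko and at 5.90, 6.16 and 6.18 in Col-0, with mutant replicate 2 within the range of the overexpressor. ORA47, known as a regulator of jasmonate synthesis genes, stood at 3.26, 3.58 and 3.14 in ERF115OE, 4.08, 3.77 and 3.51 in erf115ko and 4.19, 4.78 and 4.32 in Col-0 (r = 0.94). All mutant arrays lay below wild type, and replicate 2 of the overexpressor, at 3.58, lay above replicate 3 of the mutant, at 3.51.

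All 10 of these genes fell in the overexpressor against wild type, beside 1.70% of all probe sets called lower. Their differences there lay between -0.83 for AT1G44830 and -1.89 for AT4G29780. In the mutant 0 of 10 passed, beside 0.00879% of all probe sets called lower. There they lay between -0.37 for AT4G24110 and -1.15 for AT4G29780. Likeness to EXO over the same arrays chose them, so nothing is read from these counts or from the count against the mutant. Against the mutant, 4 of the 10 fell in the overexpressor, beside 1.03% of all probe sets called lower. The 4 were CML23 (-0.89, SE 0.18), AT1G72240 (-0.82), AT3G19680 (-0.80) and AT4G27652 (-0.62). Of these, CML23, AT1G72240 and AT4G27652 lost that call under 5, 6 and 7 of 16 other settings, each of them without mutant replicate 1, without mutant replicate 2, without mutant replicate 3 and without overexpressor replicate 3. AT1G72240 and AT4G27652 also lost it without overexpressor replicate 1, and AT4G27652 without wild-type replicate 1. AT4G27280 and AT4G24110 gained a call under 5 settings each, among them the fit without overexpressor replicate 2, and AT1G72240 passed in the mutant against wild type in that fit (adjusted p = 0.0216). Mutant replicate 1, where EXO was highest among mutant arrays, was also the highest mutant array for 8 of the 10 genes. It was so for 25.5% of the 380 probe sets searched, and the choice by correlation over the same arrays favours the higher share among the 10.

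The 5 genes most opposite to EXO had r between -0.97 and -0.92. AT3G20340 stood at 6.54, 6.39 and 6.48 in ERF115OE, at 6.02, 6.04 and 5.95 in erf115ko and at 5.46, 5.55 and 5.38 in Col-0. LEP, an AP2/ERF gene named for a leafy petiole phenotype, stood at 8.23, 8.07 and 8.14 in ERF115OE, at 7.56, 7.42 and 7.46 in erf115ko and at 7.19, 7.10 and 7.12 in Col-0. The other 3 were AT1G76590, AT4G28240 and AT2G20670. For all 5 genes every overexpressor array lay above every mutant array, and every mutant array above every wild-type array. All 5 were called higher in the overexpressor against wild type, beside 3.75% of all probe sets, and against the mutant, beside 2.65%, and 0 of 5 in the mutant against wild type. Their opposition to EXO on these arrays chose them, so nothing is read from these counts. Against the mutant, AT4G28240 lost its call under 8 of 16 other settings, among them without overexpressor replicate 1 or 3, each mutant replicate or wild-type replicate 1. AT2G20670 lost it under 3, without overexpressor replicate 3 and without mutant replicate 1 or 3. AT3G20340 passed in the mutant against wild type with the filter on low values, the trended prior and array weights.

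**Figure D3:**
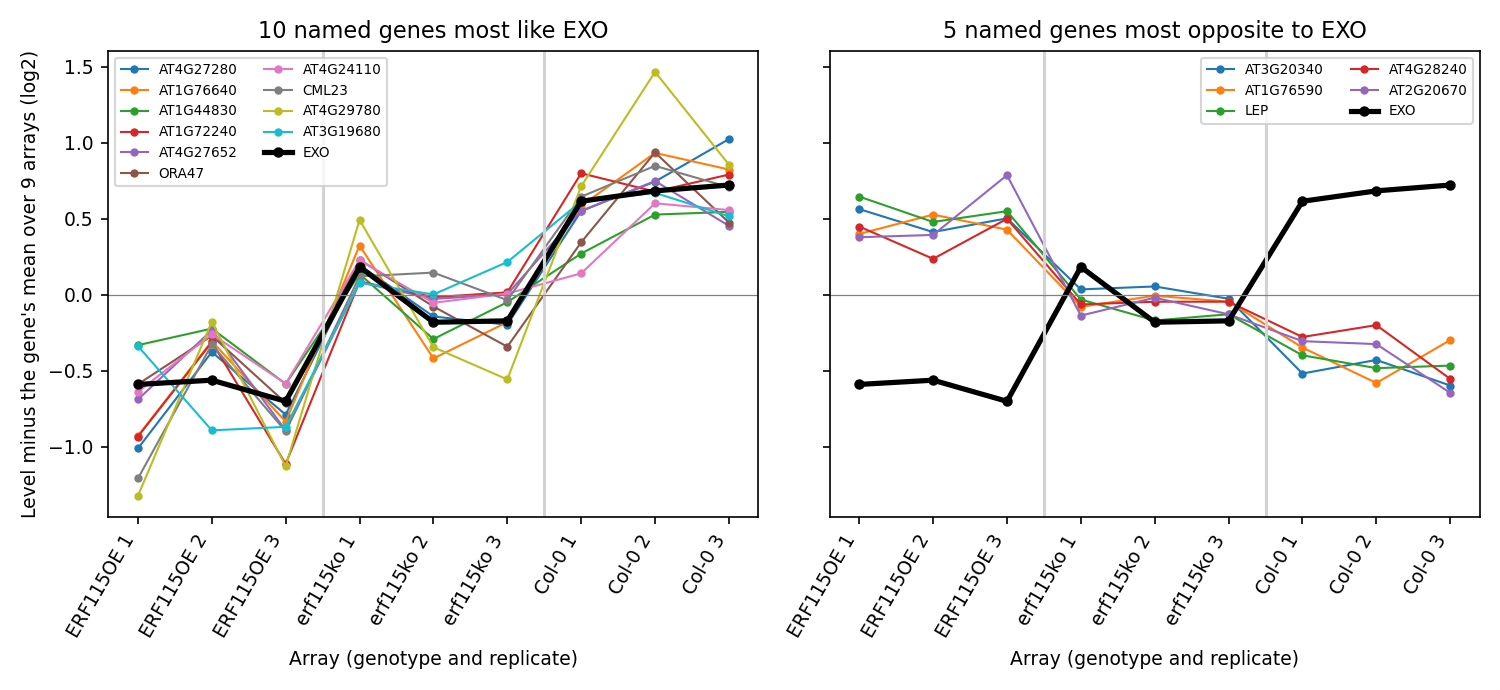
Level of each gene minus its own mean over the 9 arrays (log2, vertical axis) for the arrays of ERF115OE, erf115ko and Col-0; left, EXO (black) and the 10 genes most like it, right, EXO and the 5 most opposite. The left lines climb from the overexpressor over the mutant to wild type. Replicate 1 is the highest mutant array for EXO and 8 of the 10, beside 25.5% of the 380 probe sets searched.

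Of 75 other genes listed for brassinosteroid action, sugar starvation, touch, root cell types and photosynthetic tissue, 11 had a named probe set. None of the 11 listed genes of brassinosteroid synthesis and inactivation, the 7 brassinosteroid-induced genes or the 5 genes known to depend on EXO was among them, so those groups were not analysed here. Of the 14 genes of brassinosteroid perception and signalling, BRL1 was measured, a receptor kinase related to the receptor BRI1. BRL1 stood at 2.40, 2.70 and 2.87 in ERF115OE, at 2.78, 2.67 and 2.58 in erf115ko and at 2.83, 2.73 and 2.78 in Col-0. The 3 genotypes overlapped. BRL1 did not pass in any of the 3 comparisons (-0.12, SE 0.11, adjusted p = 0.611 in the overexpressor against wild type, limma). Its levels lay far below the array medians of 5.04 to 5.13. RMA compresses differences near background, so a change of BRL1 could have been missed.

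A search of the gene table for names that mention brassinosteroids, made after the array annotation had been read, added BRH1 and BIN4 to BRL1. BRH1 encodes a RING-type protein that is known to respond to brassinosteroids, and it stood at 5.27, 5.64 and 5.67 in ERF115OE, at 5.70, 5.79 and 5.59 in erf115ko and at 5.46, 5.68 and 5.81 in Col-0. BIN4, known as a part of the plant DNA topoisomerase complex for endoreduplication, stood at 5.61, 5.31 and 5.39 in ERF115OE, at 5.57, 5.64 and 5.53 in erf115ko and at 5.79, 5.65 and 5.53 in Col-0. Neither gene separated the genotypes. With -0.12 (SE 0.12) for BRH1 and -0.22 (SE 0.09) for BIN4 in the overexpressor against wild type, 0 of 3 genes passed in each direction, with a median of -0.12 beside -0.02 over all probe sets.

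The 3 measured genes near EXO on the chromosome did not share its full steps. Of the 10 annotated genes on each side, AT4G08940, AT4G08960 and the pseudogene AT4G08970 were measured, and none passed in any comparison. The levels of AT4G08970, from 2.62 to 3.03, lay far below the array medians, where differences may be compressed. In the overexpressor against wild type the 3 neighbours stood at -0.20 (SE 0.09), -0.07 (SE 0.06) and -0.20 (SE 0.09), in the order named. In the mutant they stood at 0.01, -0.03 and 0.06, where the sign for AT4G08940 and AT4G08970 changed under some settings. In the overexpressor against the mutant they stood at -0.21, -0.04 and -0.26. For AT4G08940 and AT4G08960, but not AT4G08970, every overexpressor array lay below every wild-type array, beside 10.6% of all probe sets.

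**Figure D4:**
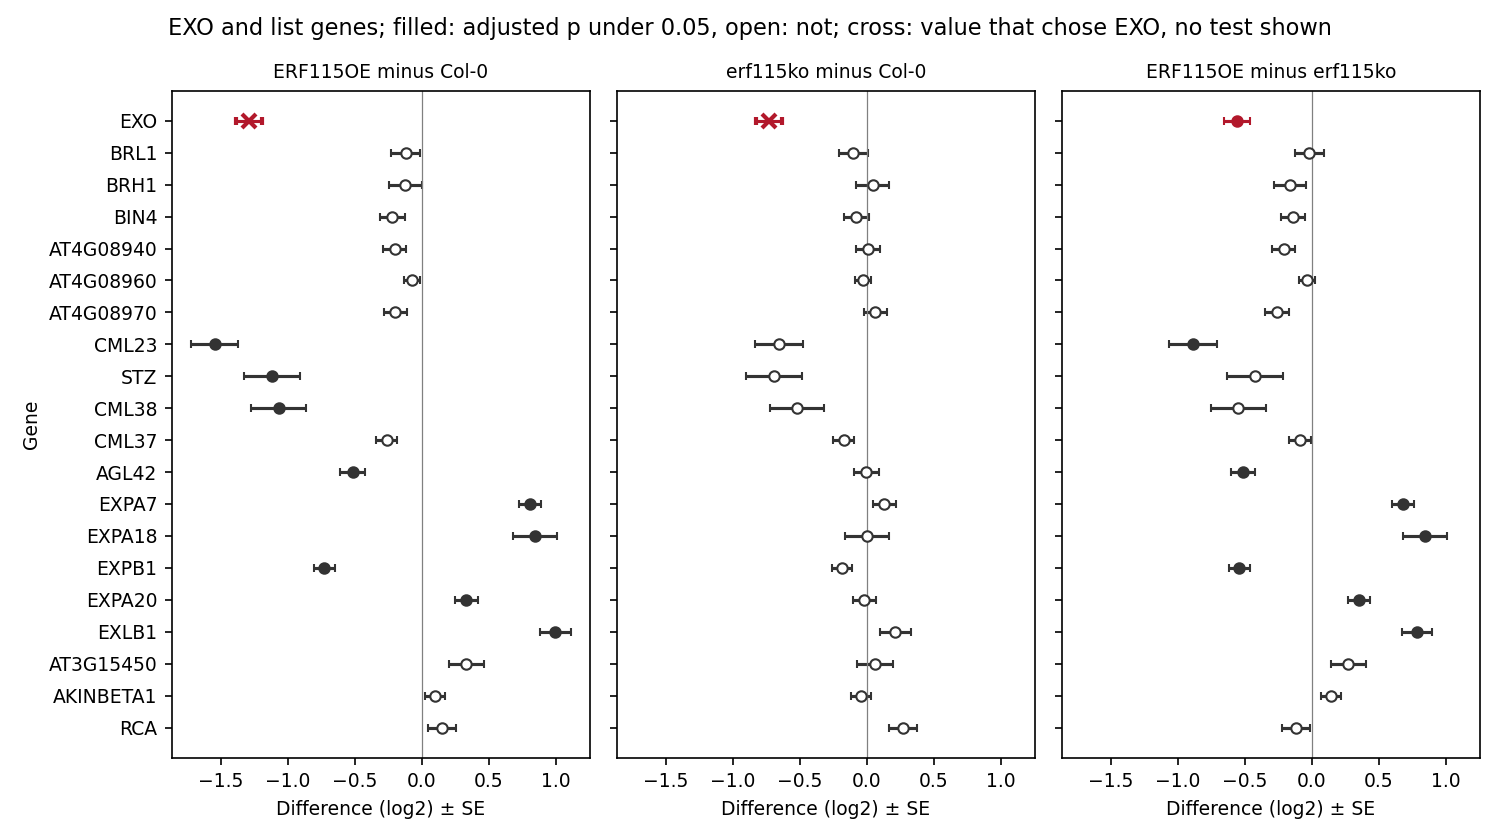
Differences (log2, horizontal axis, with SE) of EXO and 19 other genes in ERF115OE minus Col-0, erf115ko minus Col-0 and ERF115OE minus erf115ko; filled symbols passed at an adjusted p under 0.05, and crosses mark the 2 values that chose EXO. EXO and the touch gene CML23 lie far to the left in the first panel, BRL1, BRH1, BIN4 and the chromosomal neighbours lie near 0, and EXPA7, EXPA18 and EXLB1 lie to the right.

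Of 7 listed touch and rapid wound genes, 4 were measured and 3 of these fell in the overexpressor against wild type, beside 1.70% of all probe sets. CML23, a calmodulin-like calcium sensor, stood at -1.55 (SE 0.18, adjusted p = 0.000789, limma), and STZ, a zinc finger repressor of stress responses, at -1.12 (SE 0.21, adjusted p = 0.0105). The third was the calmodulin-like gene CML38 at -1.07 (SE 0.20, adjusted p = 0.0117). CML37 stood at -0.26 (SE 0.08) and passed only without wild-type replicate 1 (adjusted p = 0.0486). Its levels, from 2.39 to 2.84, lay far below the array medians, where differences may be compressed. In the mutant against wild type 0 of 4 passed, with a median of -0.59, and against the mutant CML23 alone fell in the overexpressor. The mean of the 4 genes was 4.19, 4.77 and 4.45 in ERF115OE, 5.15, 4.89 and 4.83 in erf115ko and 5.30, 5.69 and 5.41 in Col-0. By this mean the genotypes stood in the same order as for EXO, without overlap, and mutant replicate 1 was the highest mutant array. Taken as single probe sets, 0.523% of all showed such steps. Taken singly, CML23 alone kept the genotypes apart, and its highest mutant array was replicate 2 (6.73, against 6.70 for replicate 1). STZ overlapped between the overexpressor and the mutant, CML38 between the mutant and wild type, and CML37 between both of these pairs. The tips were cut at harvest, and the part of such a response in the values of EXO was not tested. Some of these genes were known from earlier results of these data when the list was drawn up, and CML23 is also among the genes most like EXO. These choices favour low values in the overexpressor and an order like that of EXO. Nothing is therefore read from the touch gene counts or from the order of their mean.

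Markers of root hairs were higher in the overexpressor, where EXO was lowest. EXPA7 and EXPA18, expansins of root hair cells, were the 2 measured of 5 root hair markers. EXPA7 stood at 8.85, 9.10 and 8.85 in ERF115OE, at 8.22, 8.30 and 8.26 in erf115ko and at 8.02, 8.19 and 8.17 in Col-0. The overexpressor lay above both other genotypes on all arrays, and the mutant arrays lay just above those of wild type, a difference of 0.13 (SE 0.08) that did not pass. EXPA7 rose by 0.81 (SE 0.08, adjusted p = 0.000438, limma) and EXPA18 by 0.85 (SE 0.17, adjusted p = 0.0137) against wild type, beside 3.75% of all probe sets called higher. The call of EXPA18 was lost when wild-type replicate 1 was left out (adjusted p = 0.0522), likewise wild-type replicate 2 (0.0599) or overexpressor replicate 2 (0.0545), and when only the 6 arrays compared were used (0.0534). The mean of EXPA7 and EXPA18 was 8.04, 8.16 and 8.11 in erf115ko, against 7.84, 7.98 and 8.29 in Col-0. The mutant and wild type overlapped in this mean through wild-type replicate 3, where EXPA18 stood at 8.42, against 7.66 and 7.76 on the other wild-type arrays. Without that array, left out after its value was seen, the mutant mean lay above that of wild type, which is a description only. For EXPA18 alone the mutant differed from wild type by 0.001, with a sign that changed under 6 of 16 other settings.

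AGL42, a MADS-box gene known as a marker of the quiescent centre, was the 1 measured of 13 root tip markers. Its levels were 4.58, 4.62 and 4.66 in ERF115OE, 5.19, 5.13 and 5.09 in erf115ko and 5.31, 4.93 and 5.17 in Col-0. The overexpressor lay below the other genotypes, which overlapped. AGL42 fell in the overexpressor against wild type (-0.52, SE 0.09, adjusted p = 0.00789, limma) and against the mutant (-0.51, SE 0.09, adjusted p = 0.0118), the second of which was lost without mutant replicate 1 (adjusted p = 0.0614). The part of root hair or quiescent centre cells in the values of EXO was not tested.

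**Figure D5:**
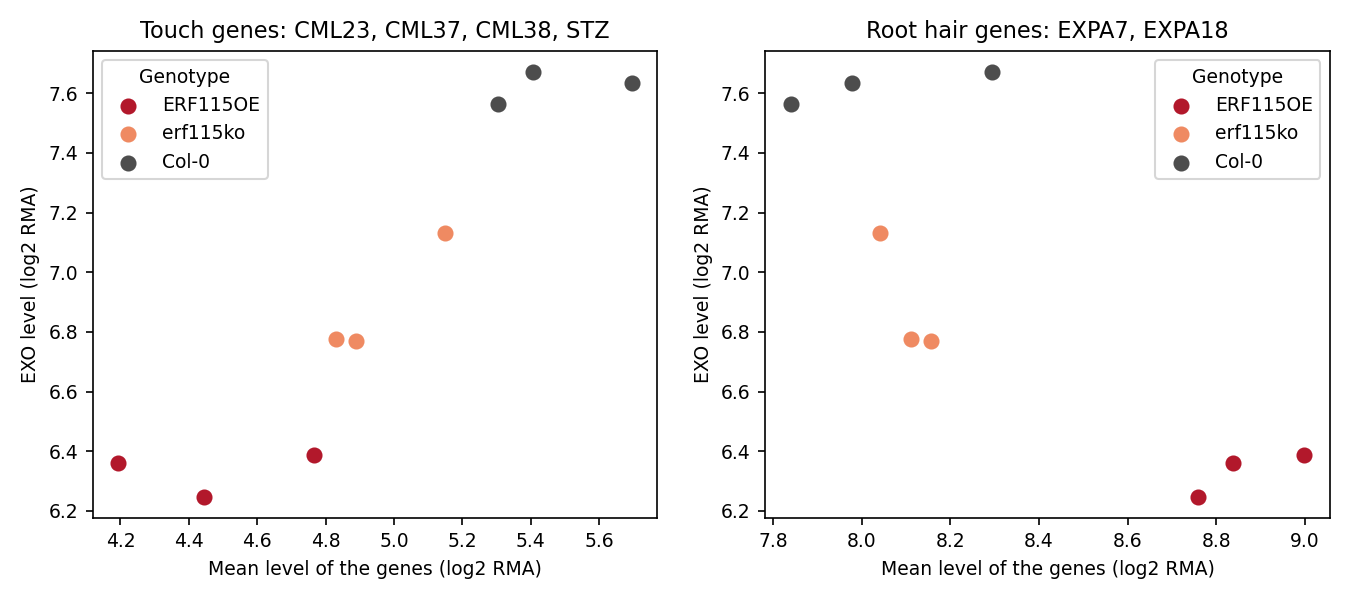
EXO level against the mean level of 4 touch genes (left) and of the root hair genes EXPA7 and EXPA18 (right), both axes in log2 RMA, 1 point for each array, coloured by genotype. On the left the genotypes follow each other in steps on both axes, and on the right the overexpressor has the highest root hair levels, while the mutant and wild-type arrays overlap through wild-type replicate 3, at 8.29. The touch genes were listed with earlier results of these data known and include CML23, so their steps are a description only.

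Of 38 genes named for expansins, the wall-loosening proteins through which plant cells enlarge, 19 were measured, a list made after the array annotation had been read. In the overexpressor 4 rose against wild type, the expansin-like EXLB1 (0.996, SE 0.11), EXPA18, EXPA7 and EXPA20 (0.33, SE 0.08), beside 3.75% of all probe sets, and 1 fell, beside 1.70%. EXPA20 lost its call under 13 of 16 other settings, among them every fit that left out 1 array other than overexpressor replicate 2. The gene that fell was EXPB1, a beta-expansin, which shared the order of EXO. It stood at 8.22, 8.08 and 8.05 in ERF115OE, at 8.63, 8.65 and 8.70 in erf115ko and at 8.72, 8.91 and 8.91 in Col-0. EXPB1 fell in the overexpressor against wild type (-0.73, SE 0.08, adjusted p = 0.000482, limma) and against the mutant (-0.54, SE 0.08, adjusted p = 0.00404), while the mutant against wild type, at -0.19 (SE 0.08), did not pass. Against the mutant the counts were again 4 higher, beside 2.65% of all probe sets, and 1 lower, beside 1.03%, with EXPA20 lost under 11 settings and EXPA18 under 4 (without overexpressor replicate 1 or 2 and without mutant replicate 1 or 3). In the mutant against wild type 0 of 19 passed. The median of the 19 genes was -0.09 in the overexpressor against wild type, beside -0.02 over all probe sets.

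Of the sugar starvation genes, AT3G15450 and AKINBETA1 were measured of 8, and neither passed in any comparison. In the overexpressor against wild type they stood at 0.33 (SE 0.13) and 0.10 (SE 0.07). RCA, which encodes an activator of the carbon-fixing enzyme Rubisco and is the 1 measured of 5 markers of photosynthetic tissue, stood at 4.46, 4.47 and 4.57 in ERF115OE, 4.40, 4.82 and 4.64 in erf115ko and 4.22, 4.36 and 4.47 in Col-0, and did not pass. The array carries 2 pairs of 3′ and 5′ control probe sets each for actin and GAPDH, whose difference is a sign of RNA integrity. For actin, the first pair gave 2.04 ± 0.09 in ERF115OE, 2.22 ± 0.03 in erf115ko and 2.20 ± 0.11 in Col-0, and the second 4.34 ± 0.18 in ERF115OE, 4.43 ± 0.10 in erf115ko and 4.32 ± 0.14 in Col-0 (log2, SD, n = 3 each). For GAPDH, the first gave 0.19 ± 0.07 in ERF115OE, 0.20 ± 0.10 in erf115ko and 0.20 ± 0.03 in Col-0, and the second 0.64 ± 0.16 in ERF115OE, 0.81 ± 0.05 in erf115ko and 0.88 ± 0.19 in Col-0. The pairs differed in their picture: the overexpressor was lowest in the first actin pair and the second GAPDH pair, and not set apart in the others. The part of RNA integrity in the values of EXO was not tested.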

How the data were processed

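The data are 9 one-colour Affymetrix arrays of root tips, 3 per genotype. The authors deposited log2 values, made with RMA in affy 1.36 per the submitters' processing notes. RMA summarizes the probes of a probe set and compresses differences near background. A genome build is not given in the sources used here, so no coordinates are printed, and sequences were not used here.

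Of 22810 probe sets, 64 controls were left out. Of the 22746 tested, 13513 have 1 gene in the platform's annotation, 503 several and 8730 none, and 13436 matched the RefSeq gene table (TAIR10.1, names only). Limma 3.58.1 in R 4.3.3 was fitted to all 9 arrays with 1 mean per genotype (6 residual and 4.49 prior degrees of freedom), with Benjamini-Hochberg adjustment over all probe sets of a comparison and a threshold of 0.05. The number of arrays limits the precision, with a median SE of 0.088 for log2 differences. The fit was tested on simulated data.

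The members and gene lists were chosen with earlier results of these data known. The naming rule was EXO, up to 5 measured genes per list and comparison, and the 10 most like and 5 most opposite genes. Alternatives were a replicate block, 2 normalizations, a filter that kept probe sets with a mean above the median, a trended prior, array weights, only the 6 arrays compared and leaving out each array. Of 75 list genes, 11 were measured. The brassinosteroid and expansin name searches, the chromosomal neighbours, the stepwise count and the alternatives for genes other than EXO were added after the files were read. Both available pairs of actin and GAPDH controls are given.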

Additional observations from a re-analysis of the deposited data

How the results depend on the processing

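EXO's difference with 1 array left out ran from -1.32 to -1.25 in the overexpressor against wild type, from -0.85 to -0.67 in the mutant against wild type and from -0.62 to -0.44 in the overexpressor against the mutant. The comparisons with wild type chose EXO, so the counts of listed loci past the threshold there are a description and show nothing of stability: 1 in the overexpressor, and in the mutant 0 as deposited, 1 with median centring, quantile normalization, the filter on low values, a trended robust prior or array weights, and 0 to 1 with 1 array left out (1 without mutant replicate 1). In the overexpressor against the mutant the count was 1, and between 0 and 1 when 1 array was left out (0 without overexpressor replicate 3), with adjusted p from 0.00319 to 0.0513 over 16 alternatives. The filter tests fewer probe sets, and the cause of the other changes was not tested.

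Correlations of the deviations of same-numbered arrays lay between -0.21 and 0.14 over all genotypes. Between the mutant and wild type they were 0.0962 to 0.138, and -0.0828 to -0.0357 for different numbers, so each array there correlated best with its own number, a hint from the data, not the design. Not every pair passed 0.1, so the numbers were not taken as pairs. With the replicate block the counts of listed loci were 1, 0 and 1 in these comparisons, as without it, and EXO's difference from the mutant stayed at -0.56 (adjusted p = 0.0207, limma).

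Over all probe sets, 387 lower calls in the overexpressor against wild type became 226 with only the 6 arrays compared and 576 with median centring, and 854 higher calls became 522 without wild-type replicate 1. The 235 lower and 602 higher calls against the mutant became 75 and 280 without mutant replicate 1, and 683 and 1079 with array weights. The 2 lower calls of the mutant ranged from 0 to 7.

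For the 33 other named genes, an extension chosen after seeing the data, 62 of 1551 recomputed values lost a call, 15 gained one and 27 changed sign. Those that changed sign were not called. In the mutant against wild type AT4G08940 became -0.0176 with median centring, -0.0118 with quantile normalization and -0.0303 with array weights, AT3G15450 became -0.0161 with array weights, and EXPA18 became -0.0255 with median centring and -0.00116 with quantile normalization. In the overexpressor against the mutant BRL1 became 0.00445 with quantile normalization and 0.12 with array weights. With 1 array left out, the mutant against wild type ranged from -0.106 to 0.0840 for AGL42, from -0.0505 to 0.122 for BRH1, from -0.0591 to 0.0228 for EXPA20, from -0.0684 to 0.0742 for AT4G08940, from -0.0251 to 0.111 for AT4G08970, from -0.0874 to 0.138 for AT3G15450 and from -0.144 to 0.238 for EXPA18. Likewise the overexpressor ranged from -0.216 to 0.00483 for BRH1 and from -0.227 to 0.00707 for BRL1 against wild type, and from -0.126 to 0.108 for BRL1 against the mutant.

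Of the 10 genes most like EXO, between 7 and 10 stayed among the 10 when 1 array was left out, and 10 with either normalization.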
